A study of Mus musculus with 34 samples.

Results

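A set of 9 genes that mark the primitive endoderm was followed in RNA-seq of J1 mouse embryonic stem cells (mESCs) grown without LIF, with or without Royalactin. The members, taken by symbol and not by their values, were Gata6, Gata4, Sox17, Sox7, Foxa2, Hnf4a, Pdgfra, Dab2 and Cubn, and all 9 had a row among the 23366 rows of the deposited table. A pair of culture groups with 2 libraries each were compared. The serum/-LIF cells received serum medium with LIF withdrawn, and the serum/-LIF + Royalactin cells received the same medium with 0.5 mg/ml of purified Royalactin, the major protein of honey bee royal jelly. Both groups were the wild-type J1 line on gelatin, at passage 40 according to the labels, whereas the study's text gives an earlier passage. Libraries with LIF were not analysed here.

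The primitive endoderm is the extraembryonic lineage that separates from the epiblast inside the blastocyst. FGF4 made by epiblast cells acts through FGF receptors to raise GATA6, which opposes NANOG, and GATA4, SOX17, SOX7 and PDGFRA follow in the cells that commit. Their descendants form the visceral endoderm, an absorptive epithelium that takes up nutrients through the cubilin and megalin receptors and the adaptor DAB2, and the parietal endoderm, which lays down a thick basement membrane. mESCs in serum are known to contain rare cells with this program, so the question here was how much of it was present after LIF withdrawal and whether Royalactin changed it.

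Most of the program was near the lower limit of these libraries, and none of the 6 members with enough reads to be tested passed the test between the cultures. Cubn and Dab2, the receptor and the adaptor of endocytosis, had at least 183 reads in every library. The 6 transcription factors and Pdgfra each had at most 65 reads in any library, and 5 of these 7 had 0 reads in at least 1 library. Dab2 and Hnf4a were lower in both Royalactin libraries than in both serum/-LIF libraries, Gata4 and Sox17 were higher in both, and the groups overlapped for the other 5 genes. Of all 12993 tested genes, which do not include Sox17, 0.493% passed the test. Both Royalactin libraries lay below for 18.9% of these genes and above for 19.7%.

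The depth was 14737796 to 17597818 gene reads, of which the ribosomal RNA precursor Rn45s made up 9.08% to 46.6%. Without Rn45s it was 7878527 and 11559820 in serum/-LIF, and 10538334 and 15999458 with Royalactin. The values below are normalized counts, that is reads divided by the size factor that the authors took for each library with DESeq, so that 1 read was worth 0.688 to 1.34 normalized counts. A gene with 0 reads could still have been present at up to 3 reads, equal to 2.07 to 4.01 normalized counts, a floor that covers counting error only. Among the markers of mESCs, Pou5f1, the gene for Oct4, lay between 4996 and 7453 normalized counts. In these bulk samples, fewer cells of a type and less RNA per cell cannot be told apart.

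**Figure D1:**
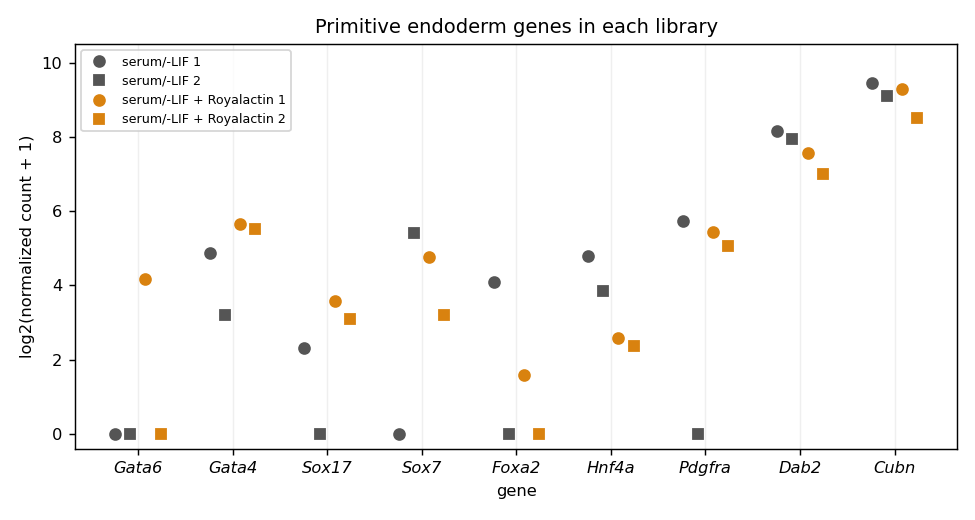
Normalized counts of the 9 primitive endoderm genes on a log2(count + 1) scale, 1 point per library, serum/-LIF in grey and serum/-LIF + Royalactin in orange, circles for replicate 1 and squares for replicate 2. Points at 0 are libraries without a read, such as Sox7 in serum/-LIF replicate 1 and Pdgfra in serum/-LIF replicate 2, whereas Cubn lay between 362 and 702 normalized counts.

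Gata6, the zinc-finger factor that starts the program, was detected in 1 library. It had 17.1 normalized counts (17 reads, exact Poisson 95% interval 9.9 to 27.2) in serum/-LIF + Royalactin replicate 1 and 0 reads in the other 3 libraries. Its mean of 8.55 ± 12.1 (SD, n = 2) with Royalactin was 2.40-fold that of serum/-LIF taken at 3 reads per library. This bound leaves out the counting error of the 17 reads, and the second Royalactin library had 0 reads. Its mean was under the limit of 10 normalized counts set for testing. Exons of Gata6 overlap the gene 1010001N08Rik on the opposite strand, and the strand setting of the counting is not given in the sources used here, so reads of the pair cannot be told apart.

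Gata4 (chromosome 14, 63817759 to 63890529 of mm9, minus strand), the related GATA factor that acts downstream of Gata6, was read in every library. It had 28.1 and 8.28 normalized counts in serum/-LIF replicates 1 and 2, and 49.3 and 44.7 with Royalactin. The groups did not overlap, and the Royalactin pair lay close together while the serum/-LIF pair differed widely. The log2 fold change was 1.55 (95% interval -0.57 to 3.66), which did not pass the test (limma with Benjamini-Hochberg adjustment over all tested genes, adjusted p = 0.68).

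The SOX factors Sox17 and Sox7, which share an HMG box and belong to the SoxF family, showed unlike patterns. Sox17 (chromosome 1, 4481009 to 4486494) had 4.01 and 0 normalized counts in serum/-LIF, and 11.1 and 7.57 with Royalactin. The underlying reads were 3 and 0 against 11 in each Royalactin library. The exact Poisson 95% intervals of 3 reads (0.62 to 8.77) and of 11 reads (5.49 to 19.7) overlapped. That of 0 reads (0 to 3.69) did not overlap the interval of 11 reads. These intervals cover counting error only, on reads not scaled between the libraries. With a mean of 5.66 over the 4 libraries Sox17 was under the limit for testing.

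Sox7 (chromosome 14, 64562511 to 64569569) had 0 and 41.4 normalized counts in serum/-LIF, and 26.2 and 8.26 with Royalactin. The serum/-LIF pair thus held both the lowest and the highest library, and the groups overlapped. Its arithmetic mean was lower with Royalactin (17.2 ± 12.7 against 20.7 ± 29.3, SD, n = 2), whereas the log2 fold change was 1.28 (95% interval -2.75 to 5.32, limma adjusted p = 0.879), so no direction can be given. Such a gap between replicates was not rare for weakly expressed genes. Of 2704 genes with a mean of 10 to 50 normalized counts, 13% had 0 reads in 1 serum/-LIF library and at least 10 reads in the other, and 7.66% did so in the Royalactin pair.

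Foxa2 (chromosome 2, 147868613 to 147872705), a forkhead factor of the visceral and the definitive endoderm, had 16 normalized counts in serum/-LIF replicate 1, 2.01 in serum/-LIF + Royalactin replicate 1 and 0 reads in both replicates numbered 2. The 12 reads of 1 serum/-LIF library carried its mean of 8.02 ± 11.3 (SD, n = 2) there. It was not tested, since its mean over the 4 libraries was 4.51 normalized counts.

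Hnf4a (chromosome 2, 163332544 to 163398646, plus strand), a nuclear receptor that drives the genes of nutrient transport in the visceral endoderm, was the only transcription factor of the list with both Royalactin libraries below both serum/-LIF libraries. It had 26.7 and 13.5 normalized counts in serum/-LIF, and 5.03 and 4.13 with Royalactin, the latter from 5 and 6 reads. The log2 fold change was -1.85 (95% interval -5.11 to 1.41, limma adjusted p = 0.765), which did not pass the test.

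Pdgfra (chromosome 5, 75548316 to 75594229), the receptor for PDGF by which primitive endoderm cells are commonly recognised, was uneven in serum/-LIF. It had 52.2 and 0 normalized counts in serum/-LIF, and 42.2 and 32.4 with Royalactin. The other 3 libraries lay between 39 and 47 reads, and serum/-LIF replicate 2 had 0. The log2 fold change of 2.38 (95% interval -1.12 to 5.88, limma adjusted p = 0.709) was carried by that library and fell to -0.49 without it.

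Dab2 (chromosome 15, 6249788 to 6390712, plus strand), the adaptor that couples cubilin and megalin to clathrin, was lower in both Royalactin libraries than in both serum/-LIF libraries. It had 284 and 245 normalized counts in serum/-LIF (264 ± 27, SD, n = 2), and 188 and 126 with Royalactin (157 ± 43.9, SD, n = 2), a ratio of 1.68 between the means. Its log2 fold change was -0.77 (95% interval -1.71 to 0.17, limma adjusted p = 0.636, the smallest of the members). A shorter gene model within its span carries the same name in the annotation, and both may have contributed to its row.

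Cubn (chromosome 2, 13197965 to 13413551, minus strand), the gene for cubilin, was the most highly counted member. It had 702 and 549 normalized counts in serum/-LIF, and 619 and 362 with Royalactin. The groups overlapped, and the log2 fold change was -0.39 (95% interval -1.17 to 0.39, limma adjusted p = 0.799). Part of this count reflects a long transcript. Per kilobase of exon, the serum/-LIF mean was 52.9 ± 9.19 normalized counts for Cubn and 36 ± 3.68 for Dab2, against 4.65 ± 3.58 for Gata4, 4 ± 1.87 for Hnf4a, 3.87 ± 5.47 for Pdgfra and 0.636 ± 0.899 for Sox17 (SD, n = 2). On the same scale Pou5f1 had 2306 ± 129 and Nanog 351 ± 44.9 (SD, n = 2). Cubn exons overlap Gm13270 on the opposite strand. When its exons were divided into tiles of 75 bases, 0.965% of them also mapped elsewhere in mm9 at up to 2 mismatches, and 0% did for the other 8 members.

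The upstream sequences of Hnf4a, Dab2 and Cubn are shown because these were the members above the limit for testing whose mean and log2 value were both lower with Royalactin. Each is the 250 bases before a RefSeq start, 5′ to 3′ on the gene's strand, in the RefSeq build GRCm38.p6, which is not the build of the counts. Capitals mark the GATA motif, searched on both strands as AGATAA or as AGATAG, and with T in place of the leading A as TGATAA or as TGATAG.
Hnf4a, chr2:163506607-163506856, plus strand: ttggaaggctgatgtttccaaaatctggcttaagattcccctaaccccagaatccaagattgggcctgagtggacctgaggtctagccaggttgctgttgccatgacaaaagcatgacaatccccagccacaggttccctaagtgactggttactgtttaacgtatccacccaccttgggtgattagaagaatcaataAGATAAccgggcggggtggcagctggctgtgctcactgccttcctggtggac
Dab2, chr15:6299539-6299788, plus strand: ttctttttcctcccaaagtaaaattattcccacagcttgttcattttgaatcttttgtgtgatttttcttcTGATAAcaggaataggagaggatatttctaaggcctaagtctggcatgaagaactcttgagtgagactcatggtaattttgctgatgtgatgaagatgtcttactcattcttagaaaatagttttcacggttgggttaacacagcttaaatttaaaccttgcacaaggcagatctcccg
Cubn, chr2:13491877-13492126, minus strand: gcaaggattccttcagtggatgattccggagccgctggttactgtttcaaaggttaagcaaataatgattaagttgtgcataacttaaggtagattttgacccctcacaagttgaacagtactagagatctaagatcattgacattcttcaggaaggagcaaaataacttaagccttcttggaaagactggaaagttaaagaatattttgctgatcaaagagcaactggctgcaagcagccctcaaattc
The motif began 52 bases before the Hnf4a start and 179 bases before the Dab2 start, and was not among the letters of the Cubn window. Windows on the chromosome of Gata6 were left out of the search. Among the rest, starts were found for 5 of the 9 members, Hnf4a, Dab2, Cubn, Pdgfra and Foxa2. They had 9 starts in all, and 3 of these 9 windows held a GATA motif. The remaining match lay in 1 of the 3 Foxa2 windows, and the windows of the second starts of Hnf4a and Dab2 had none. Of the 32851 windows of the same length that were searched, 26.5% held the motif, so a match is common and describes only the letters of the window.

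Across the members, 6 of 9 passed the limit of a mean of 10 normalized counts, and none of these 6 was called (limma with Benjamini-Hochberg adjustment, adjusted p under 0.05). None had an unadjusted p under 0.05, and edgeR on the recovered reads called none of them either. Over all 12993 genes tested, 0.493% were called, 0.331% higher and 0.162% lower with Royalactin. Of the 6 tested members, Gata4 had both Royalactin libraries above both serum/-LIF libraries, which 19.7% of all tested genes had, and Dab2 and Hnf4a had both below, which 18.9% of all tested genes had. The median log2 fold change of the 6 tested members was 0.45, against -0.01 over all tested genes. With the 3 members under the limit included it was 1.28, or 1.26 with Gata6 at its bound. The 9 members ranged from -1.85 for Hnf4a to 2.38 for Pdgfra, with 5 higher and 4 lower, so the median stood for no common direction.

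**Figure D2:**
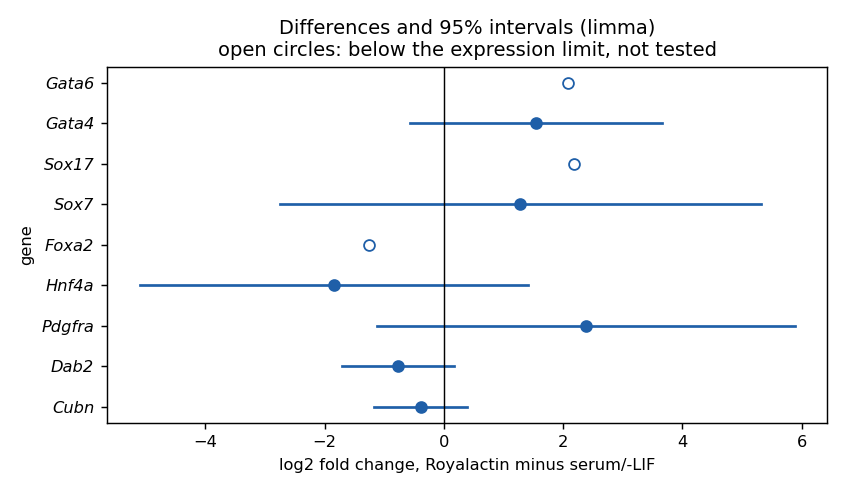
Log2 fold change of each primitive endoderm gene, serum/-LIF + Royalactin minus serum/-LIF, with the 95% interval from limma for the 6 tested genes and open circles for the 3 genes under the expression limit. All 6 intervals contain 0, and they are narrowest for Cubn (-1.17 to 0.39) and Dab2 (-1.71 to 0.17).

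The intervals differed in width between the members. For Cubn the interval ran from -1.17 to 0.39, whereas for Sox7 it ran from -2.75 to 5.32.

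Single libraries decided the value for most of the weakly expressed members. Without serum/-LIF replicate 1, the log2 fold change of Sox7 was -1.42 and that of Foxa2 was 0.80, both of the opposite sign to the value from all 4 libraries, and without serum/-LIF replicate 2 that of Sox7 was 3.99. Without serum/-LIF + Royalactin replicate 1, Gata6 had no read left in any library. Gata4 (0.72 to 2.37), Sox17 (1.02 to 3.35), Hnf4a (-2.32 to -1.38), Dab2 (-1.06 to -0.49) and Cubn (-0.78 to -0.0047) kept their sign whichever library was removed.

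**Figure D3:**
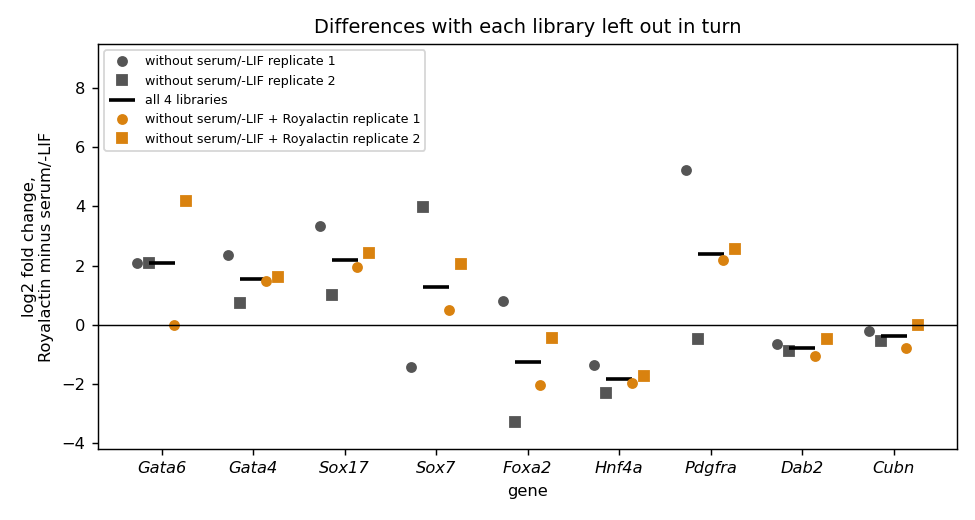
Log2 fold change of each primitive endoderm gene, serum/-LIF + Royalactin minus serum/-LIF, from all 4 libraries (black bars) and after removal of each single library (points). Sox7, Foxa2 and Pdgfra change sign with a serum/-LIF library left out, whereas Dab2 stays between -1.06 and -0.49.

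The other genes around this lineage were read from 5 lists of 73 genes, of which 71 were in the table and 53 passed the expression limit. None of the 53 was called (limma adjusted p under 0.05 after Benjamini-Hochberg adjustment, background 0.493%, 0 with edgeR). An unadjusted limma p under 0.05 was seen for 16 of the 53, a larger share than the 1214 of all 12993 tested genes. Of the 53 genes, 13 had both Royalactin libraries below both serum/-LIF libraries and 11 had both above, counts close to the 18.9% and 19.7% of all tested genes.

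Visceral endoderm genes included the partners of cubilin at the cell surface. Lrp2, the gene for megalin, the partner receptor of cubilin, had 10489 and 7041 normalized counts in serum/-LIF, and 4071 and 3439 with Royalactin. Both Royalactin libraries were lower, with a log2 fold change of -1.20 (95% interval -1.88 to -0.52), which did not pass the adjusted threshold (limma adjusted p = 0.158). Lrpap1, the chaperone of this receptor family, differed by 0.04 in log2 fold change (limma adjusted p = 0.983). Amn, the gene for the cubilin partner amnionless, had 49.5 and 0 normalized counts in serum/-LIF, and 29.2 and 22.7 with Royalactin. The 3 genes of the receptor complex were thus at very different levels, per kilobase of exon 525 ± 146 normalized counts for Lrp2, 52.9 ± 9.19 for Cubn and 14.7 ± 20.8 for Amn in serum/-LIF (SD, n = 2). Emb, the gene for the membrane glycoprotein embigin, had a lower mean with Royalactin, at a log2 fold change of -1.25 (95% interval -1.94 to -0.56, limma adjusted p = 0.143). Over the list, 6 of 12 tested genes had both Royalactin libraries below and 1 had both above, with a median log2 fold change of -1.22. Of all tested genes, 18.9% had both below and 19.7% had both above. Secreted products of the visceral endoderm were at unlike levels, with Afp at 0 to 8.02, Ttr at 12.1 to 50.7, Apoa2 at 21.4 to 218 and Apob at 389 to 697 normalized counts.

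Among the signals that lead to this lineage, the adaptor gene Shc1 had a log2 fold change of -0.72 (95% interval -1.40 to -0.03, limma adjusted p = 0.512) and the phosphatase gene Ptpn11 had -0.22 (limma adjusted p = 0.875). The ligand Fgf4 had 984 and 454 normalized counts in serum/-LIF, and 1160 and 1322 with Royalactin, without overlap and at 0.89 on the log2 scale (limma adjusted p = 0.46). Its receptor gene Fgfr2, which marks primitive endoderm precursors, had 233 and 171 against 191 and 213 normalized counts, with overlapping groups and a log2 fold change of 0.02 (95% interval -0.91 to 0.94). Fgf4 and Fgfr2 were named after their values were seen, because they are the ligand and a receptor of the inducing signal. All 13 genes of the list were tested, and the median log2 fold change was 0.26. Both Royalactin libraries lay above for 5 and below for 1, against 19.7% and 18.9% of all tested genes.

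Of the other endoderm transcription factors, 6 of 10 were tested. Foxa3, a forkhead factor, had 66.9 and 54.9 normalized counts in serum/-LIF, and 4.02 and 19.3 with Royalactin, with a log2 fold change of -2.61 (95% interval -4.89 to -0.33, limma adjusted p = 0.443). Both Royalactin libraries were lower. Cited1 had a log2 fold change of -0.99 with overlapping groups (limma adjusted p = 0.843). Hnf4g had 0 reads in all 4 libraries.

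Basement membrane genes are made in bulk by the parietal endoderm and are also expressed by mESCs, and none of the 15 tested was called (limma, 4 with an unadjusted p under 0.05, 0 with edgeR). The laminin genes Lamc1 and Lamb1 had log2 fold changes of 0.83 and 0.10 (limma adjusted p = 0.547 and 0.952), and Nid2, the gene for nidogen-2, had 0.62 (limma adjusted p = 0.617). The median over the 15 tested genes was 0.02, with 4 genes lower and 2 higher in both Royalactin libraries, against 18.9% and 19.7% of all tested genes. Thbd, the gene for thrombomodulin and a defining marker of parietal endoderm, had 3 reads in 1 Royalactin library and 0 in the other 3 libraries. Snai1 had 2 and 10 reads in serum/-LIF and 0 reads in both Royalactin libraries. Thbd and Snai1 were under the limit for testing.

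The anterior visceral and definitive endoderm list was read because Sox17 and Foxa2 also mark the definitive endoderm. Trh, the gene for thyrotropin-releasing hormone, had 1250 and 1284 normalized counts in serum/-LIF, and 2894 and 4065 with Royalactin, a log2 fold change of 1.44 just outside the threshold (95% interval 0.79 to 2.08, limma adjusted p = 0.0587, the smallest of the 53 genes). Lefty1, an inhibitor of Nodal that mESCs also express, had 1161 and 1145 against 2264 and 2559 normalized counts (log2 fold change 1.06, limma adjusted p = 0.174). Cldn6, a tight junction gene, differed by -1.24 on the log2 scale (95% interval -1.95 to -0.52, limma adjusted p = 0.172). Cer1, a defining gene of the anterior visceral endoderm, had 0 reads in all 4 libraries. Gsc had 12.1 and 20 normalized counts with Royalactin and no read without it, where the floor was 4.01 and 3.11 normalized counts. With a mean of 8.01 Gsc was under the limit for testing. Cer1 and Gsc, like Amn, Afp, Ttr, Hnf4g, Thbd, Snai1, Apoa2 and Apob above, were named for their known roles after their values were seen.

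**Figure D4:**
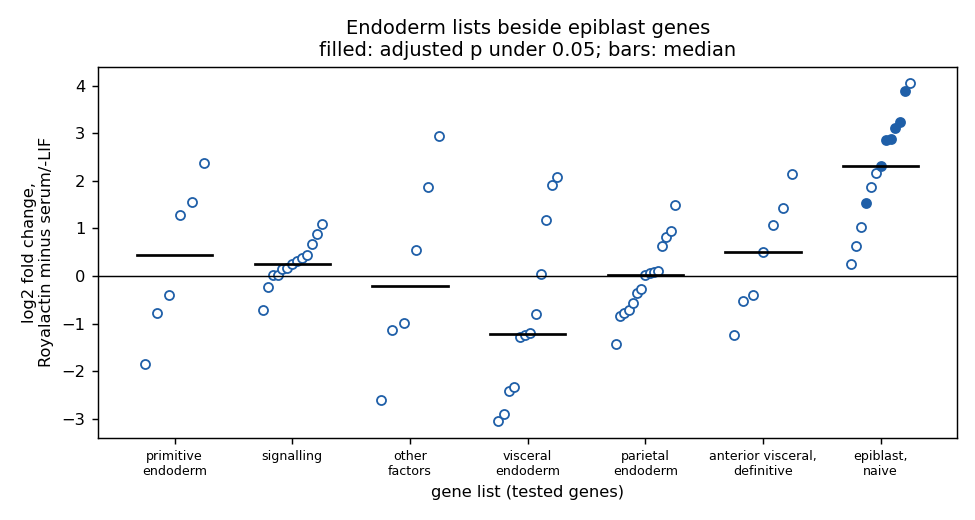
Log2 fold change of each tested gene, serum/-LIF + Royalactin minus serum/-LIF, for the primitive endoderm members, the 5 related lists and the epiblast and naive list, 1 point per gene, filled where the limma adjusted p was under 0.05, with a bar at the median. Filled points are seen in the epiblast and naive list (7 of 13), and the visceral endoderm list has the lowest median (-1.22).

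Genes of the epiblast and of naive pluripotency were read in the same fit. Of 13 genes, 7 were called, all higher with Royalactin: Sox2, Esrrb, Klf4, Tfcp2l1, Zfp42, Nr0b1 and Nr5a2, with log2 fold changes of 1.52 to 3.88. Nanog, the direct opponent of GATA6, had 859 and 716 normalized counts in serum/-LIF, and 1467 and 1738 with Royalactin (log2 fold change 1.02, limma adjusted p = 0.219). Gata4 and Sox17 were thus higher beside the naive genes in these libraries, while Dab2, Hnf4a and Lrp2 were lower. Of these, Gata4, Dab2, Hnf4a and Lrp2 did not pass the threshold, and Sox17 was under the limit for testing. The groups overlapped for Gata6, Sox7, Foxa2, Pdgfra and Cubn.

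Several members are also used by other cell types, whose markers were read beside them. Of 12 fibroblast and mesenchyme genes, which share Pdgfra, the summed level was 217 and 285 normalized counts in serum/-LIF and 120 and 70.2 with Royalactin, with Prrx1, Postn, Pdgfrb and S100a4 at 0 in all 4 libraries. Twist1 alone had 104 and 189 against 64.4 and 32.4. Of 10 heart genes, which share Gata4 and Gata6, the sums were 77.6 and 83.8 against 47.3 and 48.2, with Tbx5, Tnnt2 and Nppa at 0. Of 8 hepatocyte genes, which share Hnf4a and Foxa2, the sums were 8.02 and 5.18 against 26.2 and 12.4, and Cyp3a11, Serpina1a and Tdo2 were at 0. None of these 8 could be tested, and G6pc made up the whole sum of 26.2, with 2.07 in the other Royalactin library. Of 10 trophoblast genes the sums were 85.6 and 140 against 284 and 394, with Tfap2c, which mESCs also express, the largest part, and Elf5 and Prl3d1 at 0. None of the tested genes of these 4 lists was called (limma, 0 of 10, 3 with an unadjusted p under 0.05, and 0 with edgeR), and their part in the members' values was not tested.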

How the data were processed

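RNA was depleted of ribosomal RNA, and libraries were built by the FAST-iCLIP method and sequenced as single reads of 75 bases. The authors aligned the reads to mm9 with Tophat, obtained gene counts with HTSeq-count, and deposited these after division by DESeq size factors, as a signal that scales with reads. The annotation and strand setting are not given in the sources used here. Columns were mapped to libraries by their titles, and 30 ATAC-seq samples were not used here. Every value (100%) was a whole multiple of a step per library to within 0.01 of a read. The step in serum/-LIF + Royalactin replicate 1 is near 1, where the multiple is less certain.

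Genes with a mean of at least 10 were tested with limma 3.58.1 under R 4.3.3 (variance trend, two-sided, Benjamini-Hochberg). The scale was the log2 of the normalized count plus a pseudocount of 1, which shrinks changes of low genes. A library with 0 reads can still move the log2 fold change of a low gene away from the ratio of its means. For Pdgfra the log2 fold change was 2.38 with limma and 0.55 with edgeR, and the ratio of its means was 1.43. The methods of the paper use DESeq, which was not run here. As a count test, edgeR 4.0.16 (quasi-likelihood, TMM) on the recovered reads was added after seeing the data. An exact permutation test of 2 against 2 cannot go below 0.333. The series' design text calls replicates biological, but no label names separate cultures, so p-values measure the spread between these samples. Positions and union exon lengths came from the GENCODE annotation of mm9, and tiles were mapped with minimap2 2.31-r1302. The fits were tested on simulated data. The members and lists were chosen with earlier results of these data known. Named are all members, the 3 highest means of each related list, called genes, and others where stated, and some genes that this rule names are not reported here.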

Additional observations from a re-analysis of the deposited data

How the results depend on the processing

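No member that could be tested (2 to 9 of them, depending on the limit) was called under any of the 12 alternatives to the limma fit or with edgeR on the recovered reads, an alternative chosen after seeing the data; leaving out a library cannot add to this, since each of those 4 fits called 0 genes of all tested (428 to 2496 at an unadjusted p under 0.05) and left a lone library assumed to vary like the other group. Over all genes the number called, 64, became 32 at a pseudocount of 0.1, 34 if any gene above 0 was kept, 99 if the mean had to reach 50, 391 under the replicate block and 0 without the variance trend (1135 at an unadjusted p under 0.05), against 86 with a pseudocount of 5, 46 under both other scalings and 55 with edgeR. Since the fit without the trend called 0 genes of all tested, it cannot add to the result for the members either. Where the mean had to reach 50, only 2 members, Dab2 and Cubn, were tested. Of the related endoderm genes, 1 (Trh) was called at a pseudocount of 5 or when the mean had to reach 50, and 7 were called under the replicate block (Apoa2, Cldn6, Emb, Lefty1, Lrp2, Nid1 and Trh). Same-numbered libraries deviated from their group means with a correlation of 0.0851 across genes, the numbers are not stated to pair the cultures, and the block leaves 1 residual degree of freedom. The median of all 9 members, 1.28, was 1.61 with a pseudocount of 0.1 and 0.42 with 5, and ran from -0.49 to 1.61 with each library left out. Sox7 reversed to -0.27 with edgeR and ran from -1.42 to 3.99 with each library left out, and Pdgfra from -0.49 to 5.25. Of 101 values of single members, 95 kept their direction or stayed within the replicate spread. This count overstates the stability, since the replicate block, the fit without the trend and the other expression limits cannot change a log2 fold change. It also includes Foxa2 without serum/-LIF replicate 1, which changed sign but stayed within the replicate spread. What caused the shifts was not tested. Gata6, Sox17 and Foxa2 had at most 17 reads per library and were tested in the fit of all genes above 0 alone.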

Other observations

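A few other genes of the endoderm lists, chosen after their values were seen, differed between the cultures without overlap and without passing the adjusted threshold. The lipoprotein genes Apob and Apoa2 went opposite ways. Apoa4 and Apom, which were also tested, had log2 fold changes of -2.89 and -2.33 with overlapping groups. Apob had 697 and 688 normalized counts in serum/-LIF, and 389 and 403 with Royalactin, a log2 fold change of -0.81 (95% interval -1.51 to -0.10, limma adjusted p = 0.447). Apoa2 had 21.4 and 83.8 normalized counts in serum/-LIF, and 154 and 218 with Royalactin, a log2 fold change of 2.08 (95% interval 0.62 to 3.54, limma adjusted p = 0.295). Slc39a8, a zinc and manganese transporter, had 169 and 100 against 32.2 and 17.2 normalized counts (log2 fold change -2.41, limma adjusted p = 0.221). Nid1, the gene for the basement membrane protein nidogen-1, had 194 and 216 against 714 and 472 normalized counts (95% interval of the log2 fold change 0.68 to 2.31, limma adjusted p = 0.141), while the collagen gene Col4a1 had 1541 and 839 against 658 and 663 (log2 fold change -0.78, limma adjusted p = 0.506).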
